A study of Mus musculus with 4 samples.

Results

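The 10 genes described here encode transcription regulators of pachytene spermatocytes: Mybl1, Tcfl5, Btbd18, Rfx2, Crem, Sox30, Brdt, Zfp541, Kctd19 and Hsf2. They were taken by symbol from the RefSeq annotation of GRCm38.p6 (mm10), 10 of 49939 annotated genes on chromosomes 1 to 19, X and Y, and all 10 lie on autosomes. Every ATAC-seq peak inside one of them, or within 1 kb of either of its ends, was collected from the 4 peak lists. ATAC-seq marks open chromatin through the cuts of a transposase. Pachytene spermatocytes isolated from mouse testis received BMH-21, which blocks RNA polymerase I, at 2.5 µM over 12 h, or DMSO alone (mock), with 2 libraries per group and a list of peaks for each library. Age, strain and the animals behind each library are not stated, so the spread between replicates may be partly technical.

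Pachytene is the long stage of meiotic prophase in which paired autosomes are transcribed again and many genes needed after meiosis are switched on. Mybl1 encodes A-MYB, which drives pachytene genes and the precursors of pachytene piRNAs. TCFL5, a basic helix-loop-helix protein, acts with it on many of the same genes, and BTBD18 promotes transcription of pachytene piRNA loci. RFX2 binds X-box motifs at genes of cilia and the sperm tail, CREM binds cAMP response elements at genes of spermiogenesis, and SOX30 is an HMG-box factor of the same programme. BRDT is the testis bromodomain protein that reads acetylated histones, ZFP541 and KCTD19 are partners in a histone deacetylase complex of pachytene cells, and HSF2 is a heat shock factor active in the testis.

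Promoter windows of 7 of the genes were found in the RefSeq promoter table of GRCm38.p6, each covering 250 bases before and 50 after the transcription start, on the strand of the gene. The 6 windows below are shown because the peaks described later lie over 5 of them and over none of the sixth, that of Zfp541. Capitals mark AACNG (the core bound by MYB proteins), GTTGCC (an arm of the X-box), CACGTG (the E-box of basic helix-loop-helix proteins) and TGACGT (the core of a cAMP response element), each on either strand, and neighbouring matches can run together. The windows lie at chr2:180642642-180642941 (Tcfl5, minus strand), chr17:56830959-56831258 (Rfx2, minus strand), chr5:107330944-107331243 (Brdt, plus strand), chr10:57486135-57486434 (Hsf2, plus strand), chr2:84658829-84659128 (Btbd18, plus strand) and chr7:16071595-16071894 (Zfp541, plus strand).
Tcfl5: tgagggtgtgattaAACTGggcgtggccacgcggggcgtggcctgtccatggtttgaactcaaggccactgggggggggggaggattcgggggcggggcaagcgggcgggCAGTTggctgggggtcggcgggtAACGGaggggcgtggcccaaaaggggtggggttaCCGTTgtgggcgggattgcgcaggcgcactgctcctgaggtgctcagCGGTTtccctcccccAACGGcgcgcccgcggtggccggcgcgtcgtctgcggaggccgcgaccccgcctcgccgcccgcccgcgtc
Rfx2: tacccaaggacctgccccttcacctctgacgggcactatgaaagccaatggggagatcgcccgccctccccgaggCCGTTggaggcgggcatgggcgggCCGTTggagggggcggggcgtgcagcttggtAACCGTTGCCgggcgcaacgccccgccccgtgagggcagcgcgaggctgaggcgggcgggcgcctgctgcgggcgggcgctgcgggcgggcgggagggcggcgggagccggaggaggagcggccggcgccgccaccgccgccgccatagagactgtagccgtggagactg
Brdt: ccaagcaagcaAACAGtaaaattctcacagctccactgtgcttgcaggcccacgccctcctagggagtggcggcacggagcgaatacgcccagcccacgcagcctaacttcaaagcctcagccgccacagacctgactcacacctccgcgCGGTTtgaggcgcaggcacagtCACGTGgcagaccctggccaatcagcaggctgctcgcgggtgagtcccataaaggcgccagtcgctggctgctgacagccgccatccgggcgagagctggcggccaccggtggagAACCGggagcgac
Hsf2: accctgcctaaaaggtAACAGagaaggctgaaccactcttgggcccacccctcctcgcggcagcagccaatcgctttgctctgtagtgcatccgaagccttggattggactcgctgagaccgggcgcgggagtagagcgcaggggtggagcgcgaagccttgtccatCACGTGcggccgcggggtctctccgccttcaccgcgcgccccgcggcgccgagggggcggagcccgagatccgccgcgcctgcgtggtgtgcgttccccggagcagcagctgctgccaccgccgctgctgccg
Btbd18: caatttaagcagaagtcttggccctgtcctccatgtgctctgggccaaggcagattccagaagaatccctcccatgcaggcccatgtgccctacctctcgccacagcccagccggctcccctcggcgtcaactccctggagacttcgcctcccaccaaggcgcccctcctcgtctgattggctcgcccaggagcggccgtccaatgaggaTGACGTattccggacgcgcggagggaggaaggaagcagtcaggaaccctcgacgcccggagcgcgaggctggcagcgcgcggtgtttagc
Zfp541: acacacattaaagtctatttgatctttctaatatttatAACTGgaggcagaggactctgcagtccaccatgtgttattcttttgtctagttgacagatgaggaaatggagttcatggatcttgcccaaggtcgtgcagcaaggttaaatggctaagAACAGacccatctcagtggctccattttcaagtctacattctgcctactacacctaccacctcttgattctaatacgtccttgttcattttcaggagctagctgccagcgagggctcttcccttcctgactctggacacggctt

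AACNG was present in 6 of the 7 windows, all but that of Btbd18, and in 79.1% of 21262 windows of protein-coding genes. The Tcfl5 window held 6 copies and the Rfx2 window 4. GTTGCC occurred in 1 of the 7 windows, that of Rfx2, where it overlaps an AACNG, and in 12.6% of all windows. CACGTG occurred in 2, those of Brdt and Hsf2, and in 7.84% of all windows. TGACGT occurred in 1, that of Btbd18, and in 8.49% of all windows, while the full element TGACGTCA, the heat shock core GAANNTTC and, outside the Sox30 window, the SOX core ACAAT were not in these letters of the 7 genes. These matches describe the sequence and do not show binding. CpG dinucleotides numbered 38 in the Rfx2 window, 35 in Tcfl5, 34 in Hsf2, 28 in Sox30, 23 each in Brdt and Btbd18 and 4 in Zfp541, against a median of 13 (quartiles 4 and 24) over all windows.

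The BMH-21 lists held 51234 and 55459 peaks and the mock lists 109230 and 117905, so a weak region is less likely to be listed in a BMH-21 library. Read totals are not given. The smallest local background of a list, which scales with the reads used, was 4.46 and 4.11 fragments in BMH-21 and 4.54 and 4.31 in mock libraries. A library holds a gene end if any peak lies within 1 kb of it, and a region is called mock-only if both mock and neither BMH-21 library held it. Of 10 markers of pachytene spermatocytes 9 had a gene-end peak in the first and 8 in the second BMH-21 library, against 9 in each mock library, with none in any library for Ccna1. Markers of other testis cells differed between the groups: of 7 leukocyte markers 0 had a gene-end peak in either BMH-21 library, against 5 and 6 in the mock libraries, and of 8 Sertoli cell markers 3 in each BMH-21 library, against 7 in each mock library. Of 7 Leydig and peritubular cell markers 2 had one in each BMH-21 library, against 4 in each mock library, of 6 spermatogonial markers 3 and 5, against 6 in each mock library, and of 6 round spermatid markers 1 in each BMH-21 library, against 3 and 4 in the mock libraries. Of markers with an end held by both mock libraries, 5 of 5 leukocyte, 4 of 7 Sertoli and 2 of 4 Leydig and peritubular markers were mock-only. The same held for 1 of 6 spermatogonial, 2 of 3 round spermatid and 0 of 9 pachytene markers, beside 11.7% of autosomal protein-coding genes. The Sertoli marker Rhox5 went the other way, with a gene-end peak in the BMH-21 libraries alone. Fewer cells of a type and less open chromatin per cell cannot be told apart in these bulk libraries. The part of other cells in the results below was not tested.

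Every one of the 10 regulators kept its main start or end peak after BMH-21. Of the 25 regions inside these genes that both mock libraries held, 17 (68.0%) were mock-only, beside 75.6% of such regions in autosomal protein-coding genes, so neither count sets these genes apart. Peaks at a gene end were present in all 4 libraries for 9 of the 10 genes, and 0 were mock-only. Hsf2 was the exception by this rule alone, because its annotated gene begins 2619 bp before its RefSeq start, and its peak, present in all 4 libraries, covers that start. Among autosomal protein-coding genes whose ends both mock libraries held, 84.4% had one in all 4 libraries and 11.7% were mock-only (84.3% and 11.5% with X and Y included). The count for the regulators is thus close to what most genes show.

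**Figure D1:**
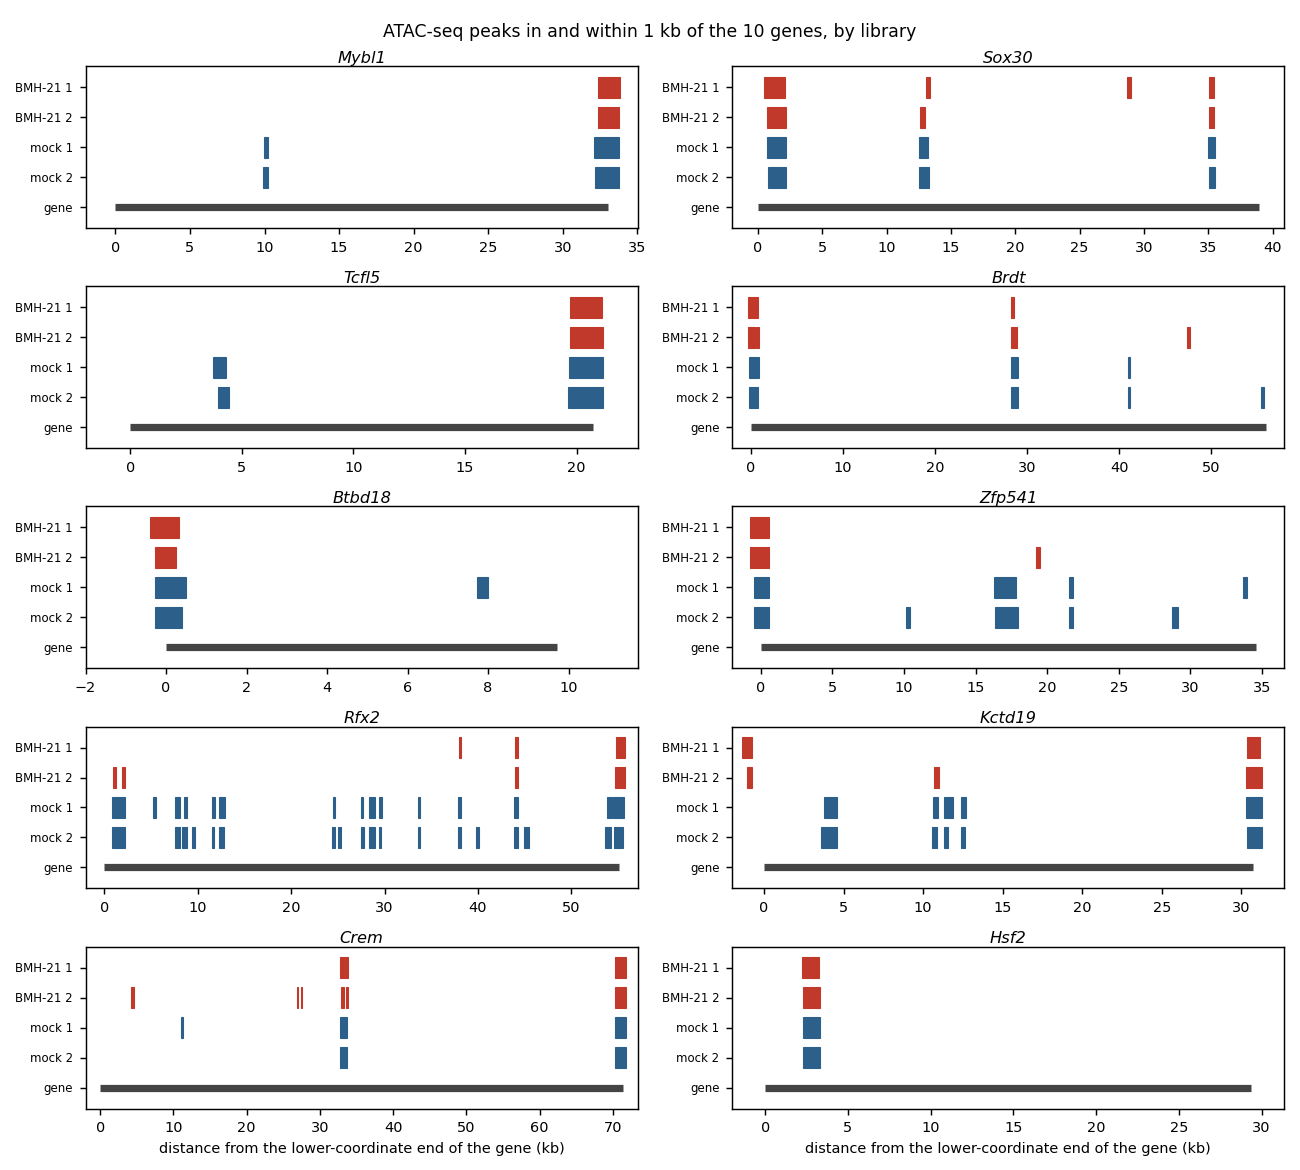
Peaks of the 10 genes by library. The x axis is the distance in kb from the lower-coordinate end of each gene, the grey bar is the gene, and each coloured block is a peak drawn to scale (BMH-21 red, mock blue). One broad peak per gene at or near an end recurs in all 4 libraries, and most of the interior blocks, 15 and 18 peaks in all for Rfx2 in mock libraries, appear in the mock rows.

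The 4 libraries together gave 54 merged regions in these genes, 14 at gene ends and 40 inside. Both mock libraries held 12 of the end regions, and of these 10 were in all 4 libraries, beside 68.2% of end regions in autosomal protein-coding genes (68.4% with X and Y), and 1 (8.33%, exact Clopper-Pearson 95% interval 0.211 to 38.5%) was mock-only. Regions were placed by their merged extent, so the 10 include 1 at Kctd19 that reaches within 1 kb of the gene through its BMH-21 peaks alone. Both mock libraries held 25 of the inside regions, and of these 6 were in all 4 libraries, beside 15.8% of inside regions (19.2% with X and Y), and 17 (68.0%, 46.5 to 85.1%) were mock-only. The 6 include the Hsf2 peak over its RefSeq start, which counts as inside by the annotated gene ends. In autosomal protein-coding genes 26.5% of end regions and 75.6% of inside regions were mock-only (25.9% and 70.5% with X and Y), values that lie within both intervals. No region of the 10 genes was BMH-21-only, of 16 held by both BMH-21 libraries, where the share was 4.14% at the ends and 25.8% inside autosomal genes (4.17% and 23.0% with X and Y). Regions listed in a single library numbered 1 and 5 in the BMH-21 libraries, against 4 and 7 in the mock libraries. The intervals cover counting error only, and regions of a gene are not replicates.

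**Figure D2:**
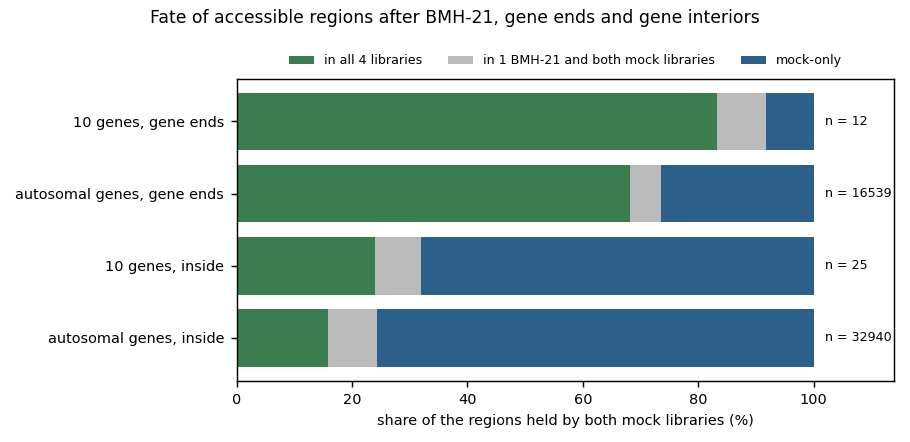
Share of the regions held by both mock libraries (x axis, %) that were also in both BMH-21 libraries, in 1 of them or in neither (mock-only), for gene ends and gene interiors. For the 10 genes 1 of 12 end regions and 17 of 25 inside regions were mock-only, beside 26.5% and 75.6% in autosomal protein-coding genes. The 25 inside regions include the Hsf2 peak over its RefSeq start.

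The number of peaks fell in 5 of the 10 genes, in the sense that each BMH-21 library had fewer than each mock library, and it rose in 0. Among autosomal protein-coding genes with any peak, 56.3% had fewer and 2.36% more by the same rule (55.2% and 2.56% with X and Y), so the count of 5 is near the background. For a single gene whose groups do not overlap, a two-sided exact permutation of 2 against 2 libraries gives p = 0.33, the smallest it can give, so no single gene can pass a threshold of 0.05 here. In all, the 10 genes held 18 and 26 peaks in BMH-21 libraries, against 40 and 43 in mock libraries, a ratio of means of 0.530, and the bases covered were 14868 and 16820, against 26930 and 28085, a ratio of 0.576. Over all protein-coding genes the ratios were 0.451 and 0.504. Covered bases were fewer in each BMH-21 than in each mock library for 7 of the 10 genes, beside 74.0% of autosomal protein-coding genes (73.3% with X and Y).

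Rfx2 supplied most of the difference. This gene of 55.1 kb (chromosome 17, 56775897 to 56831008, minus strand) had 3 and 4 peaks in BMH-21 libraries, against 15 and 18 in mock libraries. Its covered bases were 1506 and 1966 in BMH-21 libraries, against 7251 and 8486 in mock libraries, a ratio of 0.221, with no overlap between the groups. Of its 19 regions, 10 were mock-only and 2 were in all 4 libraries, namely the promoter region and one inside the gene at 56819746 to 56820165. That interior region stood near the bottom of the BMH-21 lists, with folds of 2.40 and 2.30 at the 2.05th and 1.35th percentile. In the longer mock lists it stood at the 53.2th and 35.2th percentile. Counted from the top of each list, its rank was 50184 and 54710 in BMH-21, against 51126 and 76391 in mock lists. Its summit held 59 and 58 fragments in BMH-21, against 49 and 43 in mock libraries, counts that are not scaled between libraries. The mock-only interior peaks of Rfx2 were weak by the fold of the authors' caller, 2.28 to 3.13, at the 2.47th to 16.2th percentile of their lists, although their summit pileups reached 40 to 92 fragments. Without Rfx2, the other 9 genes had 15 and 22 peaks in BMH-21 libraries, against 25 and 25 in mock libraries, a ratio of 0.740, and 8 of their 14 inside regions held by both mock libraries were mock-only (57.1%, 28.9 to 82.3%). When every list was limited to its strongest 51234 peaks by fold, Rfx2 no longer had fewer peaks after BMH-21 (a mean difference of 0.5 peaks, BMH-21 minus mock) and 2 of 7 inside regions of the 10 genes were mock-only (28.6%, 3.67 to 71.0%), beside 58.4% in autosomal genes. Under that limit 0 of 9 end regions were mock-only, beside 9.46%, and 1 of the 10 genes had fewer peaks in each BMH-21 library, beside 17.9%.

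**Figure D3:**
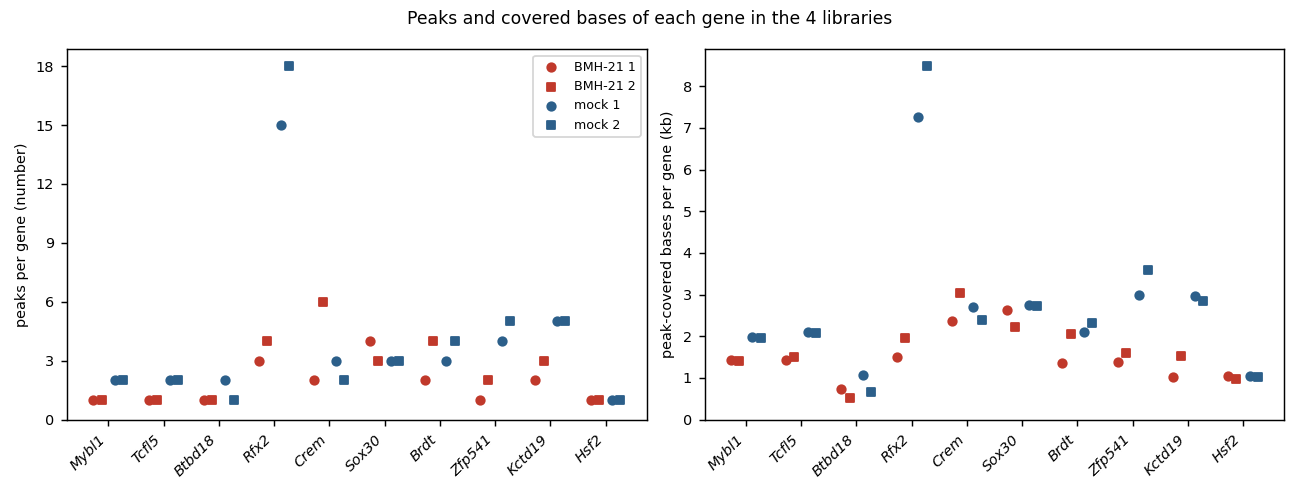
Number of peaks (left) and peak-covered kb (right) of each gene, one point per library (BMH-21 red, mock blue, circle replicate 1, square replicate 2). Rfx2 stands apart with 3 and 4 peaks in BMH-21 and 15 and 18 in mock libraries, while Hsf2 has 1 peak in each.

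Mybl1 and Tcfl5, the A-MYB gene and the gene of its partner, each had 1 peak in each BMH-21 library, against 2 in each mock library. In lists of equal length the difference of -1 peaks (BMH-21 minus mock) remained for Mybl1 and was 0 for Tcfl5. The peak of Mybl1 (chromosome 1, gene at 9667407 to 9700439) at its higher-coordinate end measured 1421 and 1409 bp in BMH-21 libraries, against 1687 and 1625 bp in mock libraries. Within each list it stood at the 75.8th and 79.6th percentile of fold in BMH-21 libraries and the 89.2th and 91.7th in mock libraries. A second Mybl1 region at 9677321 to 9677668, about 10.1 kb from the other end, was mock-only, with folds of 5.05 and 5.27. The Tcfl5 promoter peak (chromosome 2, gene at 180621956 to 180642691) measured 1440 and 1503 bp in BMH-21 libraries, against 1537 and 1589 bp in mock libraries, at the 70.5th and 61.0th percentile in BMH-21 and the 84.2th and 83.1th in mock lists. Its second region, at 180625672 to 180626376, was likewise mock-only, with folds of 3.84 and 3.97. For both genes the widths of the groups did not overlap. In lists of equal length the percentiles of both main peaks did overlap between the groups. The Mybl1 peak stood there at the 75.8th and 77.9th percentile in BMH-21, against the 77.0th and 80.8th in mock lists. The Tcfl5 peak stood at the 70.5th and 57.8th in BMH-21, against the 66.2th and 61.0th in mock lists.

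Btbd18 and Hsf2 had little but their start peak. Btbd18 (chromosome 2, 84659072 to 84668789) shares it with Ctnnd1, the p120-catenin gene, whose end lies 95 bp away, so the peak cannot be assigned to either gene. It ranked highest or next to highest of the 10 genes' main peaks in each list, at the 97.7th and 95.6th percentile in BMH-21 and the 99.1th and 98.5th in mock lists, and was 722 and 522 bp wide in BMH-21 libraries, against 771 and 667 bp in mock libraries. In lists of equal length it stood at the 97.7th and 95.2th percentile in BMH-21, against the 98.1th and 96.5th in mock lists, and the groups overlapped. The Hsf2 peak (chromosome 10, gene at 57483766 to 57513143) was 1043 and 980 bp wide in BMH-21 libraries, against 1042 and 1033 bp in mock libraries, and stood at the 87.6th and 91.4th percentile in BMH-21 and the 98.0th and 98.3th in mock lists. It is the single region of Hsf2.

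Zfp541 (chromosome 7, 16061775 to 16096340) had 1 and 2 peaks in BMH-21 libraries, against 4 and 5 in mock libraries. Its strong peak lay at the outer annotated start, with a width of 1370 and 1357 bp in BMH-21 libraries, against 997 and 1035 bp in mock libraries, and at the 88.4th and 86.4th percentile in BMH-21 and the 99.3th and 98.9th in mock lists. It was the one main gene-end peak of the 9 that was wider in each BMH-21 library. The window of the RefSeq start printed above lies 10070 bp inside the gene, is poor in CpG and had no peak in any library. A peak of the second mock library alone, at 16071903 to 16072172, begins just past the window. Its summit lies 151 bp downstream of that RefSeq start. Interior regions at 16078083 to 16079719 and 16083298 to 16083560, were mock-only, with folds of 4.59 to 5.07, and in lists of equal length the difference in peak number was -1 and the groups overlapped. Kctd19 (chromosome 8, 105382801 to 105413502) had 2 and 3 peaks in BMH-21 libraries, against 5 and 5 in mock libraries. The main peak of Kctd19 lies between it and Lrrc36, whose end is 96 bp away, and stood at the 76.2th and 85.1th percentile in BMH-21 and the 97.9th and 98.4th in mock lists. Of the 4 interior regions of Kctd19, 3 were mock-only, with folds of 2.83 to 3.99, a share near the 75.6% of autosomal genes. A weak region at the other end, inside Plekhg4, was in all 4 libraries, but in the mock libraries its peak ended just beyond 1 kb from Kctd19 and is not counted among the gene's peaks. The BMH-21 peaks of that region reached within 1 kb and are counted. In lists of equal length Kctd19 no longer had fewer peaks after BMH-21 (a mean difference of 0.5). That difference rests on the peak of the first BMH-21 library in the same weak region.

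Of the interior regions that both mock libraries held, the 1 of Crem, both of Sox30 and 1 of the 2 of Brdt were in all 4 libraries. Crem (chromosome 18, 3266354 to 3337773), a gene with several alternative starts, had 2 and 6 peaks in BMH-21 libraries, against 3 and 2 in mock libraries, and the groups overlapped. Its interior region at 3299125 to 3300128 was in all 4 libraries, at the 80.7th and 85.1th percentile in BMH-21 and the 92.7th and 94.8th in mock lists, beside an end region that overlaps the lncRNA gene Gm6225. Without the first BMH-21 library Crem would have more peaks after treatment (a mean difference of 3.5), so the second library decides its number. Sox30 (chromosome 11, 45979069 to 46017992) had 4 and 3 peaks in BMH-21 libraries, against 3 and 3 in mock libraries. Its interior regions at 45991552 to 45992438 and 46014083 to 46014590 were in all 4 libraries once peaks were merged. At the first, the BMH-21 peaks, at 45992164 to 45992438 and 45991645 to 45992050, did not overlap each other and were joined through the mock peaks. Fragments at the summits of this first region numbered 24 and 29 in BMH-21, against 41 and 38 in mock libraries. At the second region they numbered 19 and 19 in BMH-21, against 45 and 47 in mock libraries. Brdt (chromosome 5, 107331116 to 107387061) had 2 and 4 peaks in BMH-21 libraries, against 3 and 4 in mock libraries. Its interior region at 107359333 to 107360107 was its strongest peak in the mock lists, at the 99.6th and 99.0th percentile, and stood at the 77.0th and 71.6th percentile in BMH-21 lists. The summit of that Brdt region held 71 and 64 fragments in BMH-21 libraries, against 101 and 99 in mock libraries. The other interior Brdt region held by both mock libraries, at 107372105 to 107372319, was mock-only, with folds of 4.69 and 5.08.

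Of the 5 interior regions in all 4 libraries (Hsf2 aside), the summit pileup was lower in each BMH-21 library for 3 and higher for 2. The 3 lower ones were those of Brdt and Sox30, including the Sox30 region whose BMH-21 peaks do not overlap each other. The 2 higher ones were those of Crem and Rfx2. Among 5200 interior regions of autosomal protein-coding genes in all 4 libraries, 53.0% were lower and 27.6% higher by the same rule. The Crem region held 84 and 84 fragments in BMH-21, against 57 and 55 in mock libraries, and its local background was 11.3 and 9.98 fragments in BMH-21, against 5.78 and 4.92 in mock libraries. Its percentile of fold was lower after BMH-21 although more fragments lay at its summit, the fold being the summit divided by its surroundings. Pileups are the fragments behind a summit, worked back from the deposited fold and −log10 p, and are not scaled between libraries.

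At the main peaks the summits of the groups covered nearly the same range, and the local background was higher in BMH-21 libraries for most genes. Both are counts that are not scaled between libraries. Over the 10 genes the main peaks had 106 to 165 fragments at the summit in BMH-21 libraries, against 99 to 165 in mock libraries. Of the 9 present at a gene end in all 4 libraries, the pileup was higher in each BMH-21 library for 5 (Btbd18, Brdt, Kctd19, Sox30 and Rfx2) and lower for 3 (Mybl1, Tcfl5 and Zfp541), beside 30.6% higher and 51.0% lower among autosomal protein-coding genes. The local background was higher in each BMH-21 library for 8 of the 9, all but Tcfl5, and lower for 0, beside 42.6% higher and 46.3% lower among autosomal protein-coding genes. The peak was narrower in each BMH-21 library for 4 of the 9 (Mybl1, Tcfl5, Crem and Brdt) and wider for 1 (Zfp541), beside 45.9% and 24.3%. In the second BMH-21 library the Brdt promoter region was listed as 2 peaks, of 809 and 248 bp, and the stronger was measured. Together they reach from 107330786 to 107331978, against mock peaks of 1117 and 1063 bp, so the call for Brdt depends on this split. The difference in local background was largest for Kctd19, with 20.8 and 20.5 fragments in BMH-21 libraries, against 10.6 and 10.3 in mock libraries. For Rfx2 the values were 26.1 and 26.6 fragments in BMH-21 libraries, against 18.0 and 18.3 in mock libraries, and for Zfp541 15.9 and 15.3 in BMH-21, against 10.6 and 10.5 in mock libraries. The Rfx2 promoter summit itself held 147 and 159 fragments in BMH-21 libraries, against 122 and 129 in mock libraries, likewise unscaled. Whether the share of 8 in 9 differs from other genes was not tested.

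**Figure D4:**
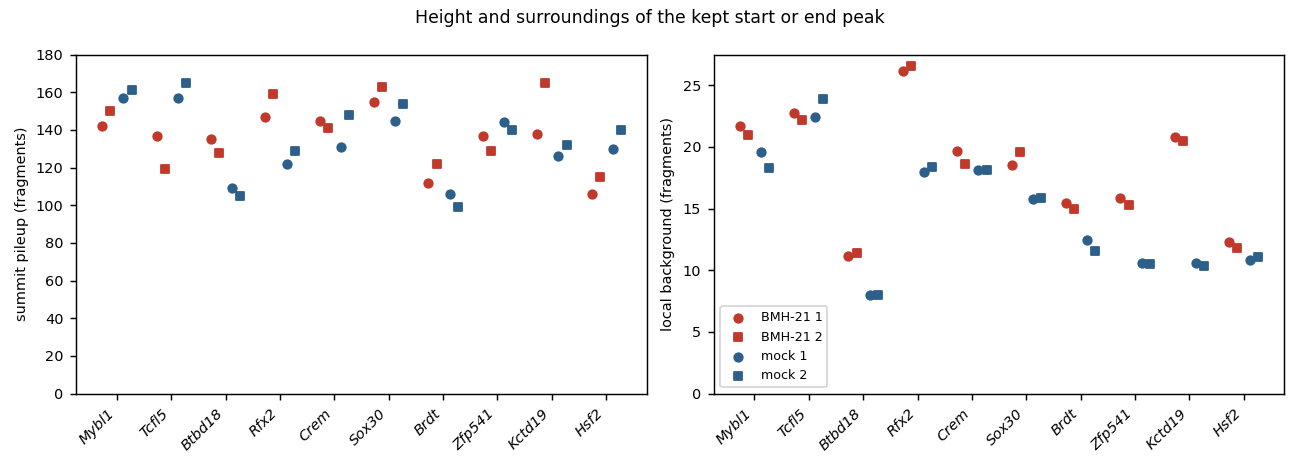
Fragments at the summit (left) and in the local background (right) of the main start or end peak of each gene, one point per library (BMH-21 red, mock blue, circle replicate 1, square replicate 2). Counts are not scaled between libraries. Summits of the groups interleave between 99 and 165 fragments, while the local background is higher in both BMH-21 libraries for 8 of the 9 genes with a gene-end peak, Tcfl5 being the exception, and for Hsf2.

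Of the 7 promoter windows 6 were covered by a peak in all 4 libraries, beside 85.0% of windows covered in both mock libraries, and the position of the summit differed between the groups at several of these starts. In Tcfl5 it lay 71 and 67 bp downstream of the RefSeq start in BMH-21 libraries, against 534 and 536 bp downstream in mock libraries. In Sox30 it lay at -165 and -155 bp (upstream) in BMH-21 libraries, against 231 and 230 bp downstream in mock libraries. In Hsf2 the positions were -147 and -122 bp in BMH-21 libraries, against 215 and 213 bp in mock libraries. Those of Brdt were -60 and -51 bp in BMH-21 libraries, against 201 and 61 bp in mock libraries. The summits of Btbd18, at -83 and -83 bp in BMH-21 and -83 and -80 bp in mock libraries, and of Rfx2, at -192 and -181 bp in BMH-21 and -197 and -182 bp in mock libraries, stayed within 20 bp. Of 6 promoter peaks 4 thus had a summit farther upstream in each BMH-21 library and 0 farther downstream, beside 55.0% and 16.3% of 11043 promoter windows of protein-coding genes with a peak in all 4 libraries. Over those windows the median summit was at -12 and -12 bp in BMH-21 libraries, against 115 and 115 bp in mock libraries, so a shift in this direction was also present over all windows. It was measured after the data had been seen.

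**Figure D5:**
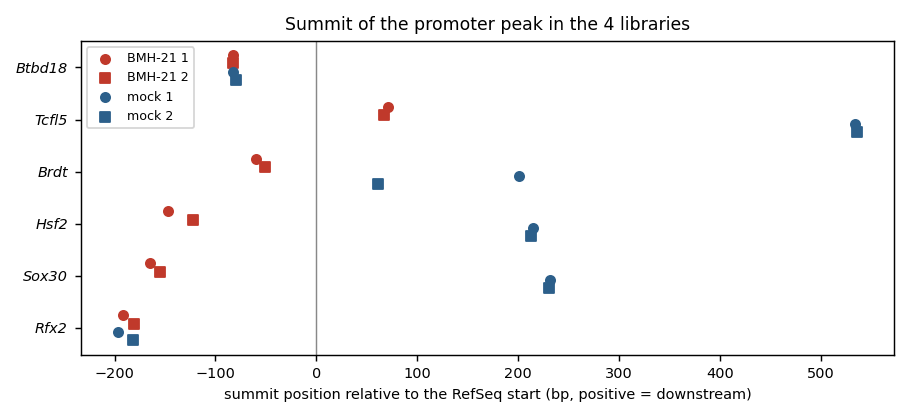
Position of the peak summit relative to the RefSeq start (x axis, bp, positive downstream) for the 6 genes with a peak over their promoter window, one point per library. Summits of Tcfl5, Brdt, Hsf2 and Sox30 lie farther upstream in both BMH-21 libraries, and those of Btbd18 and Rfx2 coincide.

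The peaks at the annotated ends of the remaining genes were measured from the gene end, with outward positions positive. For Mybl1 the summit lay at 261 and 263 bp in BMH-21 libraries, against -498 and -466 bp in mock libraries. For Zfp541 it lay at 235 and 239 bp in BMH-21 libraries, against -217 and -221 bp in mock libraries. In both genes the summit was outside the gene in BMH-21 and inside it in mock libraries. For Kctd19, at 81 and 90 bp in BMH-21 and 239 and 90 bp in mock libraries, and for Crem, at -241 and -283 bp in BMH-21 and -241 and -617 bp in mock libraries, the groups overlapped or touched.

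The strongest peak of each gene stood at a lower percentile of fold in each BMH-21 list than in each mock list for all 10 genes, with a median change of -12.2 percentile points. This holds for 57.4% of autosomal protein-coding genes with a peak in all 4 lists (59.1% with X and Y), whose median change was -4.49 points. The mock lists are longer, and list length alone can move a percentile, so these values do not by themselves show a change at the peaks. Among the strongest 51234 peaks of each list, the percentile was lower in each BMH-21 list for 5 of the 10 genes (Crem, Brdt, Zfp541, Kctd19 and Hsf2), beside 34.7% of autosomal protein-coding genes, and higher for 1, Rfx2, beside 45.1% (36.4% and 43.4% with X and Y). In lists of this length the median change over the 10 genes was -2.69 points, and 1.66 points over autosomal protein-coding genes. The order of the main peaks within each list was similar: Btbd18 ranked at 1 and 1 in BMH-21 and at 2 and 2 in mock lists, Zfp541 at 2 and 3 in BMH-21 and at 1 and 1 in mock lists, and Rfx2 and Tcfl5 took the last 2 places, 9 and 10, in all 4.

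Other transcription regulators of spermatocytes, 36 annotated of 37 listed, were read in the same way. Both mock libraries held an end of 33, of which 31 had a peak there in all 4 libraries, beside 84.4% of autosomal protein-coding genes, and 2 were mock-only, beside 11.7%, Rfx1, an RFX family member, and Sox5, a SOX factor. Rfx3, Fhl5 and Stra8 had none in any library. Fewer peaks in each BMH-21 than in each mock library were counted for 22 of the 36 and more for 0, beside 56.3% and 2.36% of autosomal protein-coding genes. Whether these shares differ from those of other genes was not tested. Short lists of known targets were read in the same way, beside the same 84.4% in all 4 libraries and 11.7% mock-only. Of 5 A-MYB targets both mock libraries held an end of 3, and these 3 had a gene-end peak in all 4 libraries. Tdrd6 was BMH-21-only and Ccna1 had none. Of 7 CREM targets both mock libraries held an end of 5, of which 3 had a gene-end peak in all 4 libraries and 2 were mock-only. These 2 were the protamine genes Prm1 and Prm2, also among the round spermatid markers. Tnp2 had a gene-end peak in the second mock library alone and Tnp1 had none. Of 4 RFX2 targets both mock libraries held an end of 3, and these 3 had a gene-end peak in all 4 libraries. Tekt4 had one in the second mock library alone. Whether the shares of these short lists differ from those of other genes was not tested.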

How the data were processed

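Peak lists of 4 ATAC-seq libraries (2 BMH-21, 2 mock) were used, from about 10000 cells each with 14 PCR cycles and paired reads of 150 bp, per the labels' protocols. Per the submitters' processing notes, fastp, Bowtie2, bedtools, deepTools and MACS2 2.1.0 and the builds mm39 and mm10 were used, without role or order. Parameters and duplicate removal are not given in the sources used here. The mm10 build was used for coordinates because chromosome 1 peaks end as far out as 195371813, which mm39 is too short to hold. The protocol names a transposase kit while the design text also names an mRNA library kit. In the deposited lists fold is a ratio, the summit pileup over the background around it. The −log10 values of p and q deposited beside it belong to that ratio. The score column the authors deposited equals −log10 q multiplied by 10 and cut to a whole number, for nearly all peaks. None is scaled between libraries. They served to rank peaks within a list and to work back pileups and local backgrounds, which are likewise unscaled. The depth of each library is unknown. Regions were peaks merged over lists with at least 1 bp of overlap. Percentiles are ranks of fold within a list. Pileup and background were recovered by the Poisson relation of the caller, which returned −log10 p to within 0.0008. The named genes are all 10 members and genes sharing their ends. Members and lists were chosen with earlier results of these data known, so no test over them was made. Procedures were tested on simulated data. Python 3.11.15, pandas 2.3.3 and scipy 1.17.1 were used. Alternatives were a stricter −log10 q of 5, equal list lengths, windows of 500 bp and 2.5 kb, summits, 50% overlap, rank by −log10 q, leaving out each library and a replicate block. Promoter windows, the analysis without Rfx2, the autosomal background, pileups and summits were added after seeing the data.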

Additional observations from a re-analysis of the deposited data

How the results depend on the processing

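The count of 9 genes with a gene-end peak in every library stayed between 8 and 10 under the other settings, and 0 were mock-only under each of them. With promoter windows in place of gene ends it was 6 of the 7 genes in that table. With equal list lengths 2 regions were mock-only, 1 gene had fewer peaks, the median percentile change was -2.69 and the ratio of covered bases 0.874, and the differences in peak number (BMH-21 minus mock) of Rfx2 and Kctd19 became 0.5 each, that of Tcfl5 0 and that of Zfp541 -1, with overlapping groups. With each peak replaced by its summit and 100 bp around it, 8 regions were in every library and 6 BMH-21-only, and the summits of Mybl1, Tcfl5, Sox30, Hsf2 and Zfp541 lay farther apart between the groups than these windows reach. With -log10 q of at least 5 the median percentile change was -13.9 and Sox30 had a difference of -1 peaks. It was -4.89 with ranks by -log10 q. Without Rfx2, 8 regions were mock-only and the ratio of covered bases was 0.718. Leaving out each library in turn gave 0 to 6 BMH-21-only regions, the 6 without BMH-21 replicate 1. The 50% overlap bears on regions alone and the -log10 q rank on percentiles alone. With a replicate block, 5 genes had fewer peaks and the ratio of covered bases was 0.575, and no call changed. Same-numbered libraries did not deviate together (r = 0.0105 across 17677 genes, which are not independent), so the numbers are not taken as pairs. The lists, without read totals, limit what can be said of weak regions.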
